A study of Homo sapiens with 10 samples.

Results

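The genes described here are 50 zinc finger genes that lie in 2 clusters on chromosome 19, 26 of them in band 19p12 and 24 in band 19q13.1. A member was measured where the array has a probe annotated with its symbol alone. That held for 25 of the 50 members, 7 in 19p12 and 18 in 19q13.1, out of 14232 genes with such a probe. The 25 have 26 probes, because ZNF540 has 2, of which the brighter was used. Another 19 members have only probes annotated with several genes, 16 of them in 19p12, and 6 members (ZNF486, ZNF708, ZNF730, ZNF260, ZNF527 and ZNF829) have no probe listed here. The clusters were picked after ZNF738 and ZNF875 had stood out between hairpin and control clones in these same arrays, so the values of the hairpin clones against the controls or the empty vector clones are a description. Counts past a threshold in those comparisons stand beside the share of all genes for completeness, and nothing is read from them.

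The 10 arrays hold RNA of DLD-1 cells, an established line from a human colorectal cancer. In the hairpin clones a short hairpin RNA, which directs cleavage or silencing of a matching messenger RNA, was expressed against LMNB1, the gene of lamin B1, which forms filaments under the inner nuclear membrane. Construct V2LHS_62673 was carried by clones 8, 9 and 12, with 1 array each, and construct V2LHS_62675 by clone 2, with 3 arrays. The controls were 3 clones with an empty vector and 1 culture of wild type cells without transfection. Each transfected clone grew from a single cell and was kept under puromycin, which the wild type cells were not, and no further genotype is given for any group. The titles of the 3 V2LHS_62675 arrays name clone 12, whereas their descriptions and the study design name clone 2, which was followed here.

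KRAB zinc finger proteins bind DNA through tandem C2H2 zinc fingers and carry a Krüppel-associated box that recruits the corepressor TRIM28 (KAP1). TRIM28 in turn brings the histone methyltransferase SETDB1 and heterochromatin protein 1, and many targets are transposable elements. The genes arose by repeated duplication, so neighbours in a cluster resemble each other in sequence and a probe for a member can also hybridise with transcripts of its copies. The clusters are known to be covered by heterochromatin marks of their own in many cell types. This does not hold for every member. The ZNF146 protein consists of zinc fingers without a KRAB domain, and RefSeq lists ZNF781 as a transcribed pseudogene. Whether each of the other members encodes a KRAB domain was not checked.

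The resemblance of the copies is visible in their promoters, which are shown here because 3 of the 19p12 probes described below were low in the same clone. A link between the promoters and those levels was not tested, and the windows do not show what a probe hybridises with. The windows run from 250 bases before to 50 after the gene start, were taken from RefSeq on GRCh38.p14, and exist in that table for 45 of the 50 members. ZNF675 (chr19:23687163-23687462, minus strand), ZNF208 (chr19:22010894-22011193, minus strand), ZNF91 (chr19:23395422-23395721, minus strand) and ZNF493 (chr19:21396883-21397182, plus strand) lie in 19p12. Capitals mark TCCAATCAG, the longest run of letters held by all 23 members of 19p12 that have a window.
ZNF675: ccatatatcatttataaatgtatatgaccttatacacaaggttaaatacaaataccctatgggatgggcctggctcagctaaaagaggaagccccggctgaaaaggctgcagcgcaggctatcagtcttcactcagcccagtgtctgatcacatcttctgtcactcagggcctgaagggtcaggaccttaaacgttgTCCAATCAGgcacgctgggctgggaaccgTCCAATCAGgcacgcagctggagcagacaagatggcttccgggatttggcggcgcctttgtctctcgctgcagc
ZNF208: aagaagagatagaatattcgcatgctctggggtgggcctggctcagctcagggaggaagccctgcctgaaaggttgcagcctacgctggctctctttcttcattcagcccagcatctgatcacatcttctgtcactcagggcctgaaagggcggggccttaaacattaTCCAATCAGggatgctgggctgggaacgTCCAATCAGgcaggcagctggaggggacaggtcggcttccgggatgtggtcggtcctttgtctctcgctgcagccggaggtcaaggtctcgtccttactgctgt
ZNF91: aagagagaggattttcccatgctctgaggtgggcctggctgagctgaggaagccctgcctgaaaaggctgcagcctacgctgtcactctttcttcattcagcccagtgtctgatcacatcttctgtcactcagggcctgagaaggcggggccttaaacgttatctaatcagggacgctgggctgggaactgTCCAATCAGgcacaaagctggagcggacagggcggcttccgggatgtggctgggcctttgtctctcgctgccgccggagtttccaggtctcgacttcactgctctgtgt
ZNF493: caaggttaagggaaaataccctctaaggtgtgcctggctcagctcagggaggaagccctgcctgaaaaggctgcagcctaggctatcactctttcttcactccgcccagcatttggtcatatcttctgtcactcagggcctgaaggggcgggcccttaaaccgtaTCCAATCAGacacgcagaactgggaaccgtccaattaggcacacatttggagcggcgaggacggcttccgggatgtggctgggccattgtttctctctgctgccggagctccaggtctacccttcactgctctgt
TCCAATCAG, searched on both strands, was found in the windows of 23 of 23 members of 19p12, a count set by how the run was picked. It was found in 0 of 22 members of 19q13.1 and in 1.04% of the 27305 genes with a window, members included. ZNF675 and ZNF208 hold 2 copies each. A longer run of 32 bases, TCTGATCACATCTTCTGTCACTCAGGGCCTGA, was shared by ZNF675, ZNF91, ZNF208 and ZNF85 and by no other of the 27305 genes, and it does not overlap the marked letters.

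Some of the 19q13.1 windows have another run in common. It is printed here for ZNF420 (chr19:37078183-37078482, plus strand) and ZNF573 (chr19:37779537-37779836, minus strand), the holders whose arrays are all given below. Capitals mark ACTACATTTCCCAGA, the longest run held by at least 6 of the 22 members of 19q13.1 with a window.
ZNF420: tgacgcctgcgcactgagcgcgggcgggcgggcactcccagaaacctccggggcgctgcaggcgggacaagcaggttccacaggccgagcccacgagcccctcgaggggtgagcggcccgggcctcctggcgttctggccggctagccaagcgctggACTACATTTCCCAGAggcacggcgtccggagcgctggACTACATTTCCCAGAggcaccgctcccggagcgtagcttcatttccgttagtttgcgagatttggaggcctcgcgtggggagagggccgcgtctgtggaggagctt
ZNF573: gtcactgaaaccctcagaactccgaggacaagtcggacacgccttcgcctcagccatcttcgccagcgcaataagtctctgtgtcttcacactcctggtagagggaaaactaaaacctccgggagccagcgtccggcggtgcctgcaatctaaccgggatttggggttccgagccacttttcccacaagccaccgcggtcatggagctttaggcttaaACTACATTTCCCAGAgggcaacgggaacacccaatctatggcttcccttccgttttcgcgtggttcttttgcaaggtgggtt
It was found, on either strand, in 6 of 22 members of 19q13.1 (ZNF260, ZNF829, ZNF568, ZNF420, ZNF569 and ZNF573) and in 0 of 23 of 19p12, against 0.154% of all genes with a window. ZNF420 holds 2 copies in this window. The median GC content was 56.0% over the 19p12 windows and 61.2% over the 19q13.1 windows. The 6 of 22 was likewise set by how the run was picked. Both runs were looked for after the windows had been read, and a match describes the letters of the window and says nothing of what binds there.

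The deposited values are log2 levels, and all differences below are differences of log2 levels. The LMNB1 probe, which is annotated for PCIF1 as well, had 7.79, 7.70 and 7.45 in clones 8, 9 and 12 and a mean of 7.67 in clone 2, against 8.93, 9.17 and 8.84 in the empty vector clones and 9.52 in wild type cells. All 4 hairpin clones were below all 4 controls. Of 12 colon epithelial markers, 11 had means from 6.69 to 12.7 over the arrays, and KRT20 was low at 4.98. The means of 5 leukocyte markers ran from 4.0 (PTPRC) to 7.05 (CD14), of 6 mesenchymal markers from 4.22 (DCN) to 7.61 (COL1A1) and of 4 endothelial markers from 4.73 (PECAM1) to 6.65 (VWF). Levels of different probes are not on a common scale, so these ranges do not show which markers are absent. Clone 8 stood apart before any group was compared. Its median over all probes was 7.62, against 7.34 to 7.41 on the other 9 arrays, and its correlations with them over all probes were 0.915 to 0.926, against 0.986 or above among the other 9. Most group results are therefore given with and without clone 8. In bulk RNA a lower share of cells with a transcript cannot be told apart from less transcript per cell.

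Most measured members had a low probe level. A gene is called dim here when its mean over the arrays was under 5.95, the 25th percentile of all probes. By that rule 14 of the 25 measured members were dim, 3 of 7 in 19p12 (ZNF43, ZNF208 and ZNF681) and 11 of 18 in 19q13.1 (ZNF529, ZNF382, ZNF461, ZNF345, ZNF568, ZNF569, ZNF570, ZNF793, ZNF571, ZNF781 and ZNF573). Among the other 108 zinc finger genes of chromosome 19 with a ZNF symbol, 38.0% were dim. Of the measured members ZNF146 had the highest probe level, 9.63 to 10.1 over the arrays, and ZNF568 the lowest single value, 3.28. A dim value may lie near the bottom of the scale of its probe, where a true change would be compressed. The bound was set across probes, however, and the bottom of each probe was not measured. ZNF208, called dim, ran from 3.34 in clone 8 to 6.30 on array 1 of clone 2.

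ZNF738, a 19p12 member, separated the hairpin clones from the controls by the widest margin of the 25. Its level was 8.54, 8.17 and 8.59 in clones 8, 9 and 12 and 8.51, 8.47 and 8.24 on the 3 arrays of clone 2, against 7.37, 7.01 and 7.08 in the empty vector clones and 7.63 in wild type cells. All 6 hairpin arrays lay above all 4 control arrays, and wild type cells lay above every empty vector clone. The 4 hairpin clones averaged 8.43 ± 0.19 and the controls 7.27 ± 0.29 (SD, n = 4 each), a difference of 1.15 that was 1.12 without clone 8. Across the alternative settings that left out a clone or culture it ranged from 1.07 to 1.27.

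ZNF875, formerly HKR1, of 19q13.1 had the next largest difference of means among the members whose groups did not overlap, with a narrow gap between the groups. It had 6.51, 6.86 and 7.23 in clones 8, 9 and 12 and 7.25, 6.88 and 6.52 on the arrays of clone 2, against 6.20, 6.07 and 6.40 in the empty vector clones and 6.46 in wild type cells. The arrays did not overlap, but clone 8 and array 3 of clone 2 were close to wild type cells, and the arrays of clone 2 spread as widely (SD 0.37, n = 3) as the 4 hairpin clones (SD 0.30, n = 4). The mean was 6.87 in hairpin clones and 6.28 ± 0.18 in controls, a difference of 0.59, or 0.71 without clone 8.

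**Figure D1:**
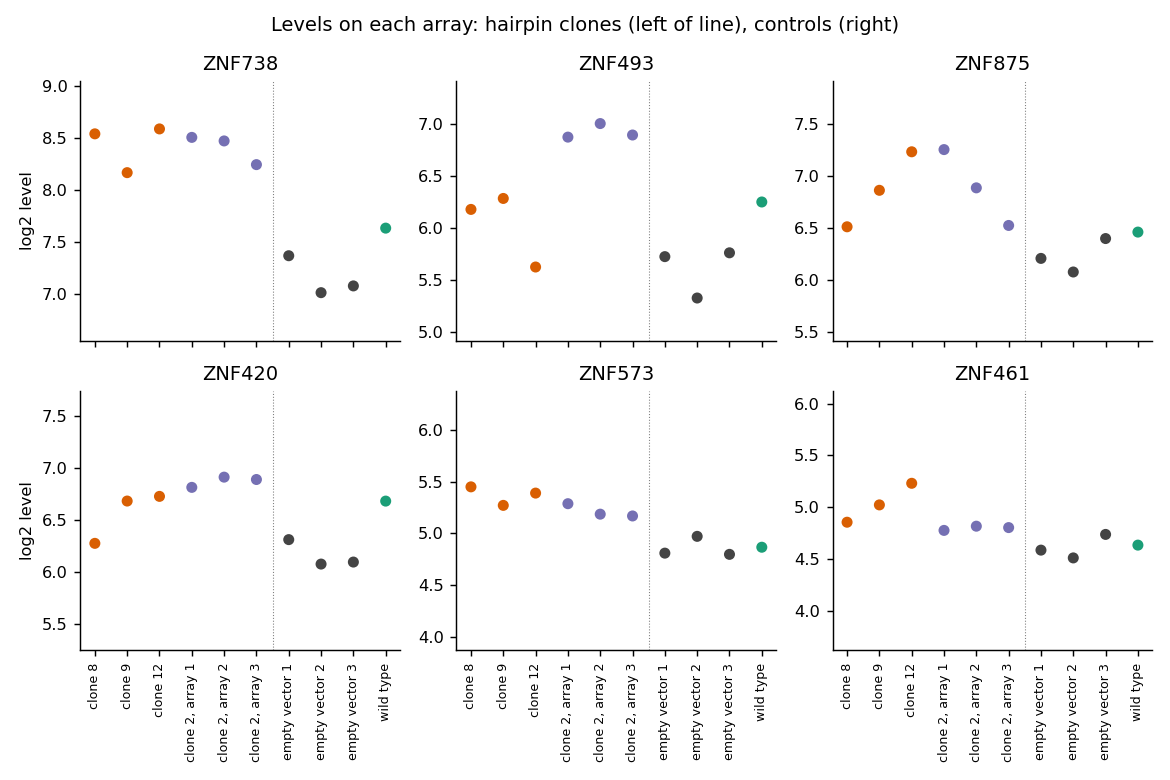
Log2 level (y axis) of 6 members on each of the 10 arrays (x axis), hairpin clones left of the dotted line and controls right of it; the panels have different origins. ZNF738, ZNF875, ZNF573 and ZNF461 have every hairpin array above every control array, ZNF493 is highest on the 3 arrays of clone 2, and ZNF420 overlaps through clone 8 at 6.27.

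The dim 19q13.1 members ZNF573, ZNF461 and ZNF382 also had non-overlapping clone values, with smaller differences of means. ZNF573 had 5.45, 5.27 and 5.39 in clones 8, 9 and 12 and 5.29, 5.19 and 5.17 on the arrays of clone 2, against 4.81, 4.97 and 4.80 in empty vector clones and 4.87 in wild type cells. ZNF461, whose rat counterpart was described as a gonadotropin-inducible repressor, had 4.86, 5.02 and 5.23 in clones 8, 9 and 12 and 4.78, 4.82 and 4.81 on the arrays of clone 2, against 4.59, 4.51 and 4.74 in empty vector clones and 4.64 in wild type cells. For both genes the arrays were separate, with differences of 0.47 for ZNF573 and 0.36 for ZNF461, and of 0.43 and 0.40 without clone 8. ZNF382, described elsewhere as a tumour suppressor silenced by methylation in cancers, had 4.07, 3.90 and 3.94 in clones 8, 9 and 12 and 4.01, 3.89 and 3.75 on the arrays of clone 2, against 3.83, 3.87 and 3.78 in empty vector clones and 3.69 in wild type cells. Its clone values were separate by a narrow margin and its arrays overlapped. The difference of 0.16 was 0.12 without clone 8 and 0.05 after quantile normalization.

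Over all 25 measured members, 5 had every hairpin clone above every control, against 2.80% of all genes, and 0 had every hairpin clone below, against 1.22% of all genes. Without clone 8 these counts were 7, with ZNF420 and ZNF571 added, against 4.37%, and 0, against 2.23%. Both additions were marginal. For ZNF420, clone 9 and wild type cells were both at 6.68. For ZNF571, arrays 1 and 3 of clone 2, at 5.72 and 5.69, were below wild type cells at 5.73. The difference between hairpin clones and controls was above 0 for 22 of 25 members, against 64.0% of all genes. Without clone 8 it was above 0 for 24 of 25, against 57.8%. The median difference was 0.24 with and without clone 8, against 0.09 and 0.02 over all genes. After quantile normalization 19 members were above 0, and the median of all genes was 0.01. After median centring it was 20 members, and the median of all genes was 0.02. The 64.0% is the share without either scaling. In limma 0 of 25 members passed an adjusted p of 0.05, as did 0% of all genes, and 4 members and 2.72% of all genes had an unadjusted p under 0.05. The clusters were chosen from this comparison, and the 4 include ZNF738 and ZNF875, so these counts restate the choice.

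Dim and brighter members differed in how far clone 8 entered these medians. The 14 dim members had a median difference of 0.24 with clone 8 and 0.11 without it, against 0.17 and 0.06 over all dim genes. For the 11 members that were not dim it was 0.16 with clone 8 and 0.29 without it, against 0.04 and 0.01 over all genes that were not dim. The other 108 zinc finger genes of chromosome 19 had a median of 0.11, or 0.08 without clone 8, with 79 and 85 of them above 0. The 178 zinc finger genes on other chromosomes had 0.04 in both fits.

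**Figure D2:**
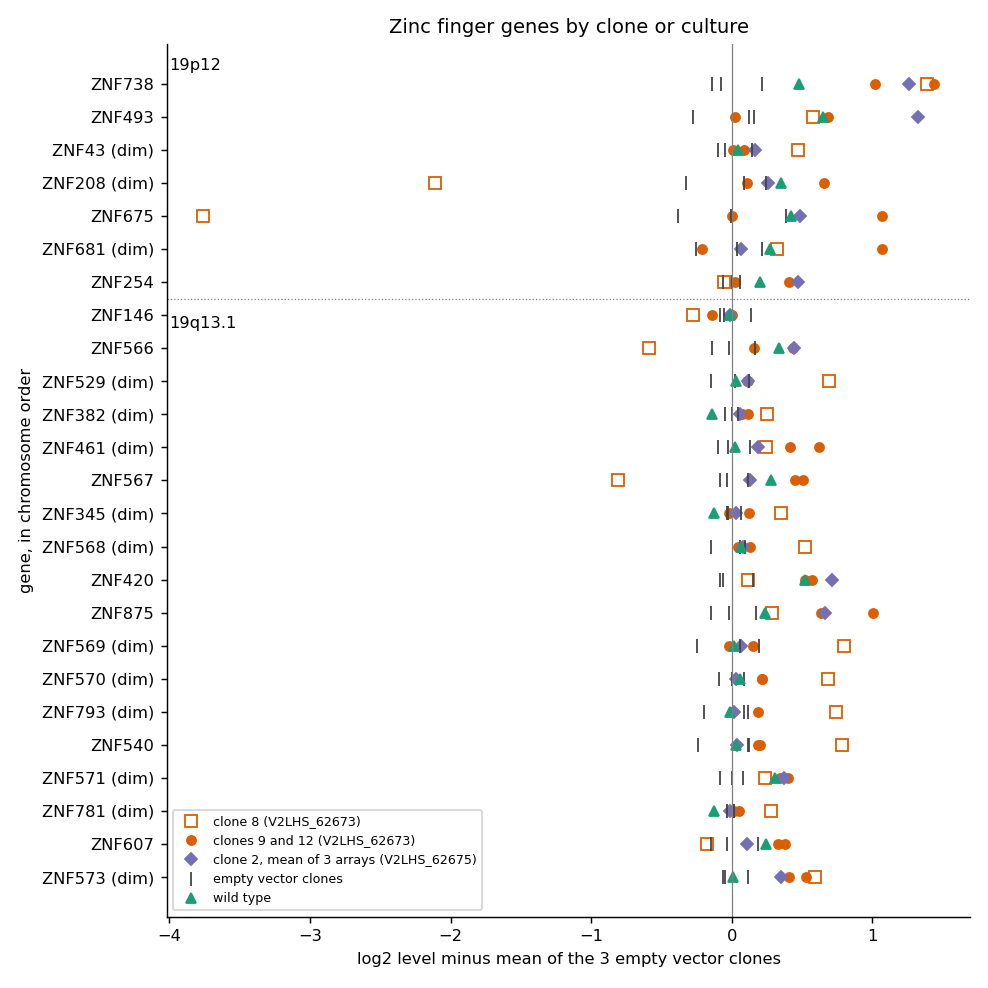
Log2 level of the 25 measured members minus the mean of the 3 empty vector clones (x axis), with genes in chromosome order from top to bottom (y axis); symbols stand for single clones, clone 2 is the mean of its 3 arrays, and ticks are the empty vector clones. Most hairpin clones sit right of 0, and the open squares of clone 8 lie far left for ZNF675 and ZNF208.

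The clones of construct V2LHS_62673 were set against the empty vector clones, which had passed through the same selection. This comparison, the next and that of wild type cells use the same 3 empty vector arrays, so the values are given side by side and their likeness is no result. ZNF738 was higher by 1.28, ZNF875 by 0.64 and ZNF573 by 0.51, and the differences without clone 8 were 1.23, 0.82 and 0.47. At the other end ZNF675 was lower by 0.89, ZNF208 by 0.45 and ZNF146 by 0.14, but without clone 8 ZNF675 was higher by 0.54 and ZNF208 by 0.38, and ZNF146 was lower by 0.07. ZNF146, a zinc finger protein known to be overexpressed in colorectal tumours, had 9.63, 9.76 and 9.91 in clones 8, 9 and 12 and 9.73, 9.90 and 10.1 on the arrays of clone 2, against 9.82, 9.85 and 10.0 in the empty vector clones and 9.89 in wild type cells. Its groups overlapped throughout.

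In this comparison 8 members had clones 8, 9 and 12 all above the empty vector clones, against 7.98% of all genes, and 11 members had clones 9 and 12 above them, against 15.5%. The difference was above 0 in 22 of 25 members, against 63.2% of all genes, and in 24 without clone 8, against 54.8%. The median over the members was 0.31, or 0.30 without clone 8, against 0.10 and 0.01 over all genes. After either scaling 20 members were above 0. The median of all genes was then 0.01 with quantile normalization and 0.02 with median centring, and the 63.2% is the share without scaling. With all clones limma passed 0 of 25 members and 0% of all genes, with 5 members and 3.19% of all genes at an unadjusted p under 0.05. Without clone 8 it passed 2, ZNF738 and ZNF875, both higher, against 0.148% of all genes higher and 0.485% in either direction. These are the genes that led to the choice of the clusters, so their passing restates it.

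Clone 2, the only clone of construct V2LHS_62675, had ZNF493 highest relative to the empty vector. ZNF493 had 6.88, 7.01 and 6.90 on the arrays of clone 2 and 6.18, 6.29 and 5.62 in clones 8, 9 and 12, against 5.72, 5.33 and 5.76 in the empty vector clones and 6.25 in wild type cells. The 3 arrays of clone 2 lay above all 7 other arrays, whereas clone 12 lay among the empty vector clones. The difference of clone 2 from the empty vector clones was 1.32 for ZNF493, 1.26 for ZNF738 and 0.71 for ZNF420.

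ZNF420, also called APAK and described as an inhibitor of p53-dependent apoptosis, had 6.81, 6.91 and 6.89 on the arrays of clone 2 and 6.27, 6.68 and 6.73 in clones 8, 9 and 12, against 6.31, 6.07 and 6.09 in the empty vector clones and 6.68 in wild type cells. Clone 8 and the empty vector clones overlapped, and wild type cells equalled clone 9 to 2 decimals. Only 2 members lay below the empty vector mean in clone 2, ZNF146 and ZNF781, each by 0.01. ZNF781 had 3.54, 3.50 and 3.49 on the arrays of clone 2 and 3.80, 3.57 and 3.53 in clones 8, 9 and 12, against 3.49, 3.53 and 3.54 in the empty vector clones and 3.39 in wild type cells, so clones 8 and 9 were above the empty vector range and the highest array of clone 2 was level with its top.

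Of the 25 members, 9 had all arrays of clone 2 above all empty vector clones, against 12.6% of all genes. The difference was above 0 in 23 of 25 members, against 60.1% of all genes. The median difference was 0.13, against 0.03 over all genes. After quantile normalization 20 members were above 0, and the median of all genes was 0.01. The 60.1% is the share without that scaling. With all clones limma passed 0 of 25 members and 0% of all genes, with 3 members and 2.29% of all genes at an unadjusted p under 0.05. Without clone 8, where the SE of ZNF738 was 0.18 and not 0.26, it passed ZNF738, ZNF493 and ZNF420, all higher, against 0.738% of all genes higher and 1.95% in either direction, while 8 members and 14.9% of all genes had an unadjusted p under 0.05. ZNF738 was among the genes that led to the choice, and the arrays of clone 2 were part of the values used, so these calls are no support. Clone 2 enters as 1 sample and is assumed to vary like the other clones.

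Wild type cells were also set against the empty vector clones. The members were not chosen by this comparison, but its 4 arrays were the controls in the comparison that led to the choice. The values of ZNF738 and ZNF875 in it are therefore a description as well. Wild type cells were above all 3 empty vector clones in 12 of 25 members, against 27.3% of all genes, and below all 3 in 3 members (ZNF382, ZNF345 and ZNF781), against 28.6%. The second empty vector clone was the lowest of the 4 controls in 17 of 25 members, against 33.3% of all genes. The difference of wild type from empty vector was above 0 in 20 of 25 members, against 47.3% of all genes. It was above 0 in 21 members after quantile normalization and 22 after median centring. The median of all genes moved from -0.01 to 0.01 and 0.03 with these scalings. With the second empty vector clone left out, 14 of 25 members were above 0, and the median of all genes was -0.03. Without that clone the difference of hairpin clones from controls was above 0 in 20 of 25 members. Its median over the members was 0.16, against 0.07 over all genes. The share of all genes above 0 is not given for these alternatives.

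The largest of these differences were 0.65 for ZNF493 (95% interval -0.09 to 1.38), 0.52 for ZNF420 (-0.06 to 1.10) and 0.48 for ZNF738 (-0.11 to 1.08), each with an adjusted p of 1.0 in limma. Without clone 8 the intervals narrowed to 0.12 to 1.17 for ZNF493, 0.23 to 0.81 for ZNF420 and 0.08 to 0.89 for ZNF738, with adjusted p-values of 0.197, 0.075 and 0.215. The lowest members were ZNF382, lower by 0.14, ZNF345 by 0.13 and ZNF781 by 0.13, all dim. ZNF345 had 3.47 in wild type cells, against 3.66, 3.56 and 3.57 in the empty vector clones, and 3.95, 3.72 and 3.57 in clones 8, 9 and 12 and 3.74, 3.63 and 3.51 on the arrays of clone 2. The share of all genes that passed was 0.00703% with all clones and 1.89% without clone 8, and 0 of 25 members passed in either fit. At an unadjusted p under 0.05 there were 0 members with all clones, against 2.28% of all genes, and 4 without clone 8, against 16.1%.

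The constructs were compared directly, clone 2 minus the clones of V2LHS_62673. ZNF493 was higher in clone 2 by 0.90 (95% interval 0.16 to 1.63, adjusted p = 0.935 in limma) and by 0.97 without clone 8 (0.41 to 1.53, adjusted p = 0.101). ZNF675 was higher in clone 2 by 1.38 and ZNF208 by 0.71 with all clones, but lower by 0.05 and 0.12 without clone 8, so both differences rested on that clone. Their intervals with all clones were -2.22 to 4.98 and -1.42 to 2.84. For ZNF738 the difference was -0.02, with an interval of -0.62 to 0.57, or -0.40 to 0.46 without clone 8.

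At the lower end of that comparison were ZNF540 (-0.35), ZNF570 (-0.34) and ZNF681 (-0.33), and their intervals included 0. Without clone 8 the differences were -0.16, -0.19 and -0.36. ZNF540 had 6.62, 6.41 and 6.29 on the arrays of clone 2, against 7.19, 6.59 and 6.60 in clones 8, 9 and 12, and 6.52, 6.17 and 6.53 in the empty vector clones and 6.43 in wild type cells. Its second, dim probe was likewise highest in clone 8, at 4.94. ZNF570 had 4.72, 4.59 and 4.48 on the arrays of clone 2, against 5.25, 4.78 and 4.78 in clones 8, 9 and 12, and 4.65, 4.48 and 4.57 in the empty vector clones and 4.63 in wild type cells. Clone 8 was the highest of all arrays for both genes. ZNF681 had 3.89, 3.89 and 3.78 on the arrays of clone 2, against 4.11, 4.85 and 3.58 in clones 8, 9 and 12, and 4.0, 3.54 and 3.83 in the empty vector clones and 4.06 in wild type cells. There clone 9 was the highest, and without clone 9 the difference was 0.01. The members above 0 numbered 10 of 25, against 37.9% of all genes, and 9 without clone 8, against 54.0%. The median over the members was -0.07, against -0.09 over all genes. After median centring 14 members were above 0. The median over the members was then 0.02, against -0.0006 over all genes, and the 37.9% is the share without centring. No member passed, against 0% of all genes with all clones and 0.892% without clone 8. At an unadjusted p under 0.05 there was 1 member with all clones, against 2.01% of all genes, and there were 3 without clone 8, against 12.3%.

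Clone 8 departed from the other 7 clones and cultures in a way that depended on the level of the gene. It was above their mean in 16 of 25 members, against 66.1% of all genes. This split by level into 13 of 14 dim members, against 94.3% of all dim genes, and 3 of 11 members that were not dim, against 58.4% of all such genes. At least 1 log2 unit below the others were ZNF675 (-4.04), ZNF208 (-2.31) and, just past the bound, ZNF567, which made 3 of 25 members against 9.35% of all genes. The nearest outside that bound was ZNF566 at -0.78, and 0 members were 1 unit above, against 4.12% of all genes, with ZNF738 the highest at 0.79.

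**Figure D3:**
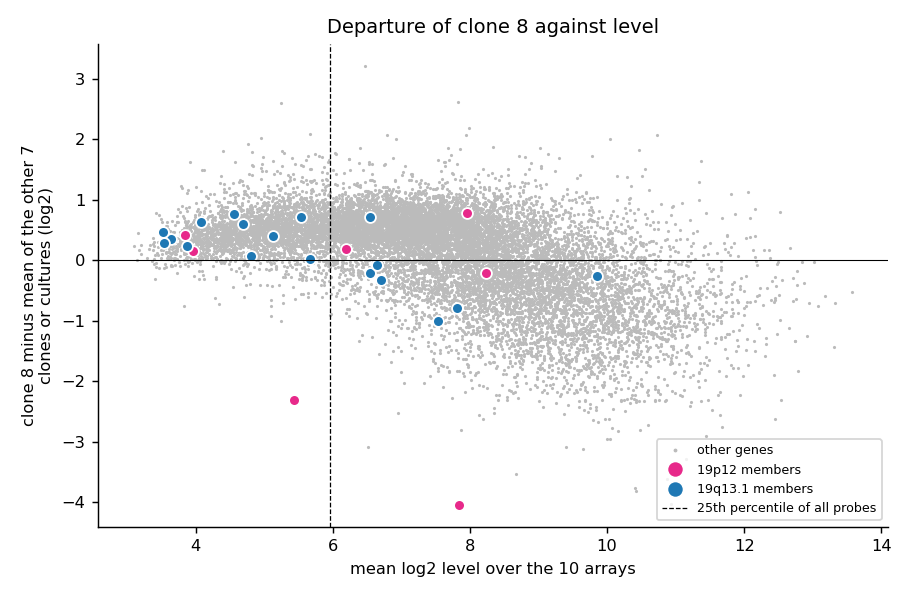
Clone 8 minus the mean of the other 7 clones or cultures in log2 units (y axis) against the mean log2 level over the arrays (x axis) for all 14232 genes, with members of each cluster in colour and the dashed line at the 25th percentile of all probes. Dim genes mostly lie above 0 and bright genes spread below it, and ZNF675 at -4.04 and ZNF208 at -2.31 lie below the genes of similar level.

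ZNF675, known as an inhibitor of TRAF6 signalling, had 4.16, 7.92 and 8.99 in clones 8, 9 and 12 and 8.78, 8.10 and 8.33 on the arrays of clone 2, against 8.31, 7.91 and 7.54 in the empty vector clones and 8.34 in wild type cells. ZNF208 had 3.34, 5.56 and 6.10 in clones 8, 9 and 12 and 6.30, 5.46 and 5.37 on the arrays of clone 2, against 5.69, 5.53 and 5.12 in the empty vector clones and 5.80 in wild type cells. In both genes clone 8 alone was low and the remaining hairpin clones overlapped the controls. The values in clone 8 lie under the bound for dim genes, where differences can be compressed, so no fold is given. A probe annotated for ZNF91, which represses SVA retrotransposons, and the pseudogene ZNF725P had 5.01, 7.17 and 8.39 in clones 8, 9 and 12 and 7.85, 7.20 and 7.57 on the arrays of clone 2, against 7.14, 6.70 and 6.31 in the empty vector clones and 7.78 in wild type cells. It too was lowest in clone 8, by 2.28 relative to the other 7. For all 3 probes the third empty vector clone was the lowest of the other 9 arrays and wild type cells the third highest of the 10. The 32 bases printed above were found by searching the windows of ZNF675, ZNF91 and ZNF208, picked for these values. ZNF85, the other holder, has a dim probe shared with ZNF66, which had 3.72 in clone 8, against 3.73 to 4.16 on the other 9 arrays, with no such drop. Whether the 3 probes read separate transcripts was not tested.

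**Figure D4:**
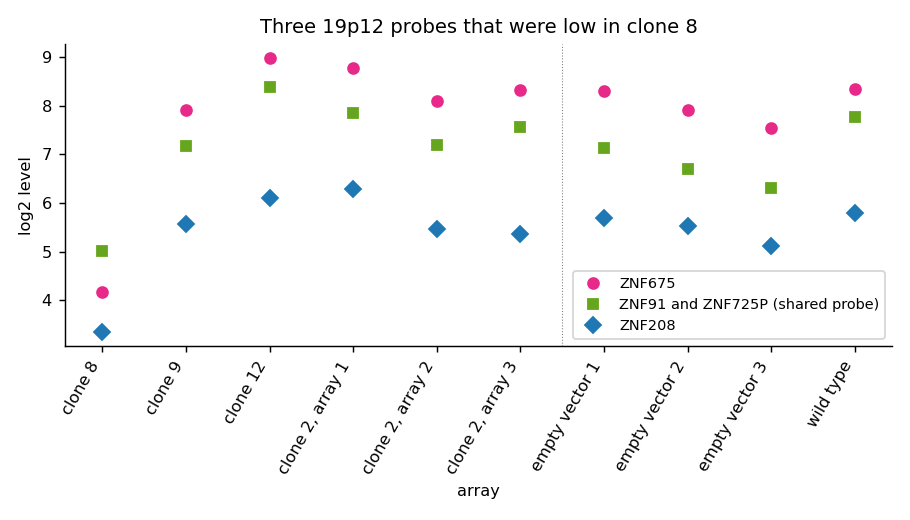
Log2 level (y axis) on each of the 10 arrays (x axis) of the ZNF675 probe, the probe shared by ZNF91 and ZNF725P, and the ZNF208 probe, hairpin clones left of the dotted line. All 3 are lowest in clone 8, at 4.16, 5.01 and 3.34.

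The 16 probes annotated for a member together with other genes gave no level that can be assigned to 1 gene. Their differences between hairpin clones and controls ran from -0.25 to 0.48. The median was 0.10, against 0.09 over all genes with a probe of their own. Above 0 were 12 of 16, against 64.0% of those genes, or 14 of 16 without clone 8, against 57.8%. The probe of ZNF431 and ZNF714 had 7.62, 7.97 and 7.86 on the arrays of clone 2 and 7.15, 7.0 and 7.17 in clones 8, 9 and 12, against 6.97, 6.67 and 6.83 in the empty vector clones and 7.33 in wild type cells. As with ZNF493, the arrays of clone 2 were above all others. A probe of ZNF585B and ZNF585A had 7.05, 7.79 and 7.81 in clones 8, 9 and 12 and 7.53, 7.79 and 7.91 on the arrays of clone 2, against 7.26, 7.15 and 7.19 in the empty vector clones and 7.44 in wild type cells, and only clone 8 of the hairpin arrays was below the controls. Both probes were picked after their values had been seen. The other probe of ZNF585A and ZNF585B had 6.63, 7.91 and 7.96 in clones 8, 9 and 12. On the arrays of clone 2 it had 7.85, 7.70 and 7.66. The empty vector clones had 7.70, 7.47 and 7.57 and wild type cells 7.71, so the arrays overlapped. Its difference between hairpin clones and controls was -0.05, against 0.34 for the first probe of this pair. Without clone 8 these were 0.26 and 0.52.

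The remaining 10 measured members (ZNF43, ZNF254, ZNF566, ZNF529, ZNF567, ZNF568, ZNF569, ZNF793, ZNF571 and ZNF607) had overlapping groups with all clones. Their differences between hairpin clones and controls were 0.00 to 0.26, with a median of 0.17, and 0.06 to 0.29 without clone 8. Among them ZNF567 had the widest range of clone values, 6.64 to 7.96 in hairpin clones against 7.37 to 7.73 in controls. ZNF254 ran from 7.98 to 8.50 in hairpin clones, against 7.97 to 8.23 in controls. ZNF568, whose mouse counterpart represses a placental transcript of Igf2, ran from 3.47 to 3.95 in hairpin clones, against 3.28 to 3.52 in controls.

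The partners through which KRAB proteins repress were measured for 21 of 24 listed genes, CHD3, CHD4 and ZFP57 lacking a probe of their own. TRIM28 itself had 11.0, 11.5 and 11.5 in clones 8, 9 and 12 and 11.7, 11.9 and 11.9 on the arrays of clone 2, against 11.5, 11.6 and 11.6 in the empty vector clones and 11.9 in wild type cells, with overlapping groups. Between hairpin clones and controls 0 of 21 passed in limma, as did 0% of all genes. Of the 21, 12 were higher, against 64.0% of all genes, and the median difference was 0.03, against 0.09 over all genes. Without clone 8, 0 passed, against 0% of all genes, and 13 were higher, against 57.8%. The median was then 0.04, against 0.02 over all genes. With all clones the smallest p-values belonged to TASOR, UHRF1, DAXX and ATRX.

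TASOR, a scaffold of the HUSH silencing complex, had 7.96, 8.45 and 8.40 in clones 8, 9 and 12 and 7.70, 7.96 and 8.06 on the arrays of clone 2, against 8.81, 8.76 and 8.63 in the empty vector clones and 8.71 in wild type cells. Every hairpin array was below every control, with a difference of -0.55 ± 0.15 (SE, adjusted p = 0.696 in limma), or -0.47 without clone 8. Among all genes, 1.22% had every hairpin clone below every control. Relative to the empty vector, clone 2 was lower by 0.82, a value from 1 clone. The other 3 had differences of 0.39 ± 0.18 for UHRF1, which guides maintenance DNA methylation, 0.45 ± 0.24 for DAXX, a histone chaperone, and 0.25 ± 0.14 for ATRX, the remodeller that works with DAXX (SE, adjusted p = 0.696 each in limma). For DAXX the value in clone 8 was 8.02, against 6.60 to 7.01 on the other 9 arrays, and without clone 8 the difference was 0.18. UHRF1 and ATRX had 0.26 and 0.30 without clone 8.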

How the data were processed

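RNA of DLD-1 clones and cultures was hybridised to 10 gene-level exon arrays. The authors deposited log2 values for 22011 probes. The base was read from their range. How the background was corrected and the arrays were normalized was not stated in the labels. Of the probes, 14432 carry 1 symbol in the platform annotation, 2408 several and 5171 none. Symbols were updated through a RefSeq table of GRCh38.p14, which held 14404 of the 14432. For the 197 genes with several such probes the brightest was used, which gave 14232 genes with no filter on level.

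The 3 arrays of clone 2 were averaged, leaving 8 clone-level samples. The tool was limma 3.58.1 under R 4.3.3, with two-sided moderated tests, p-values adjusted by Benjamini-Hochberg over all genes and a threshold of 0.05. The fit of 4 hairpin clones against 4 controls had 6 residual degrees of freedom. A fit of the 4 groups, with 4, gave the other contrasts. Only the fit of hairpin clones against controls was tested on simulated data, whose noise was normal and held no deviating clone. The fit of the 4 groups was not tested in this way. P-values measure the spread between these clones, and clone 2 and wild type cells, as 1 sample each, are assumed to vary like the rest.

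The members, the lists and the comparisons were chosen with earlier results of these data known. Every array is given for ZNF738 and ZNF875, for members whose clone values did not overlap, and for the 3 largest differences each way in the other comparisons; of the corepressor partners the 4 smallest p are named. Alternatives were 2 scalings, 2 filters on low levels, averaging of several probes, a prior with trend, weighted arrays, other treatments of clone 2's arrays and of the controls, the replicate number as a block, and leaving out each clone or array.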

Additional observations from a re-analysis of the deposited data

Results flagged for a closer look

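In each measured member the 4 hairpin clones and the 4 controls were checked for a value far from the rest of its group, 50 checks in all, and chance marks about 1 in 20 such groups. There were 2 cases. ZNF529 in the hairpin clones was highest in clone 8, at a log2 level of 4.65, while the other 3 were at 4.06 to 4.07. ZNF568 in the controls was lowest in the second empty vector clone, at 3.28, while the other 3 were at 3.48 to 3.52. Both genes are dim.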

How the results depend on the processing

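The members past the adjusted p of 0.05 between hairpin clones and controls were 0, and 1, ZNF738, with array weights, with each array as its own replicate, and with neither clone 8 nor wild type cells (3, 1 and 12 of all 14232 genes). With array weights the count was 7 for V2LHS_62673 against empty vector (553 of all genes), 4 for V2LHS_62675 against empty vector (591), 1 for wild type against empty vector (648; ZNF420, 0.50, adjusted p = 0.0389 in limma) and 1 for V2LHS_62675 against V2LHS_62673 (703; ZNF493, 0.76, adjusted p = 0.0498). With each array as its own replicate it was 1 for V2LHS_62673 (7 of all genes) and 2 for V2LHS_62675 (63) against empty vector. Leaving out each clone or array gave 0 to 2 for V2LHS_62673 and 0 to 3 for V2LHS_62675 against empty vector, the upper ends without clone 8 (69 and 277 of all genes), and 0 throughout for the other 3 comparisons. Same-numbered arrays of clone 2 and empty vector share only a number (correlations of 0.0552, -0.134 and -0.228). The fit with the replicate number as a block held only these arrays and counted the 3 arrays of clone 2 as replicates. In it 7 members and 902 of all genes passed, which rests on repeats of 1 clone. That fit differs from the main fit in more than the block, so the count cannot be credited to the block. The median over members changed as follows. Quantile normalization gave 0.094 for hairpin clones against controls, 0.13 for V2LHS_62673 against empty vector and -0.012 between constructs; median centring gave 0.22 for V2LHS_62673 and 0.021 between constructs. A filter at the 25th percentile left 11 members, with medians of 0.16, 0.18, 0.47, 0.28 and 0.13 for the 5 comparisons in the order of the report, and a filter at the 50th percentile left 6, with 0.014, 0.026, 0.46, 0.30 and 0.24. Each array as its own replicate gave 0.17 and subtraction of the median of all genes 0.15 for hairpin clones against controls, and array weights 0.21 for V2LHS_62673. Leaving out each clone or array gave medians of 0.16 to 0.26 for hairpin clones against controls, 0.18 to 0.34 for V2LHS_62673 and 0.07 to 0.19 for V2LHS_62675 against empty vector, 0.06 to 0.12 for wild type cells and -0.14 to -0.026 between constructs. Between constructs and with each clone or array left out, ZNF675 ran from -0.054 to 2.36, ZNF208 from -0.12 to 1.26 and ZNF681 from -0.63 to 0.0096; the first 2 turned without clone 8 and ZNF681 without clone 9. The number of arrays limits the precision, and for 14 dim members so may their low level. The causes of these shifts were not tested.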
